A study of Mus musculus with 6 samples.

Results

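The enzymes that write and erase DNA methylation, and the core of the Polycomb complex that methylates histone H3, were followed at the RNA level in mouse CD4+ T cells cultured with idelalisib. They are 10 genes chosen by name: the DNA methyltransferases Dnmt1, Dnmt3a and Dnmt3b, the methylcytosine dioxygenases Tet1, Tet2 and Tet3, and Ezh1, Ezh2, Eed and Suz12 of Polycomb repressive complex 2 (PRC2). All 10 were found among the 54532 genes of the deposited count table, and all 10 passed the filter on low counts, which 14530 genes passed. The cells were purified from spleens of C57BL/6 mice and cultured in Th1 (T helper 1) conditions, with all cultures sampled at 72 h. Control cultures (3 libraries) had no idelalisib named in their labels, and treated cultures (3 libraries) received idelalisib, which blocks the delta isoform of phosphoinositide 3-kinase. The sources used here do not give the dose, whether the controls received a solvent, or the number and age of the mice. The labels call the libraries biological replicates without saying whether each came from its own mouse, so the p-values cover the variation among these cultures alone, and it could be technical.

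DNA methylation is copied to the new strand at replication by DNMT1, which UHRF1 guides to half-methylated sites, while DNMT3A and DNMT3B can methylate unmethylated sites. TET enzymes oxidise 5-methylcytosine, which leads to its loss. PRC2 places methyl groups on lysine 27 of histone H3 (H3K27) through EZH2 or its paralog EZH1, and EED and SUZ12 hold the complex together and make it active. In T cells, TET2, DNMT3A and EZH2 are known as regulators of cytokine genes and of helper and memory cell fates. Abundance of RNA does not show the activity of these enzymes, and neither DNA nor histone methylation was measured here.

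Total counts ranged from 13372318 to 16770452 per library. Levels are given in CPM on library totals multiplied by TMM factors. These differed between the groups, at 0.942 to 0.955 in control and 1.05 to 1.06 in idelalisib libraries. Before those factors 1 CPM stood for 13.4 to 16.8 reads. The CD4+ T cell label was borne out by Cd3d, Cd3e, Cd3g, Cd247, Cd4, Cd5 and Cd28, whose summed level was 2475 to 2512 CPM in control and 2408 to 2559 CPM with idelalisib. Of those 7 CD4 T cell markers 2 were called higher, and 1 without control replicate 1 or 3, while 0 were lower by edgeR and 1 by DESeq2. Beside the counts called in this paragraph, 22.2% of all tested genes were called higher and 22.4% lower (adjusted p under 0.05). Summed markers of other cells were low. Those of CD8 T cells (2 genes) reached 4.43 to 7.86 CPM in control and 7.24 to 9.50 CPM with idelalisib, with Cd8a called higher, a call that needed replicates 1 and 3 of both groups. B cell markers (10 genes, 7 tested, 5 called higher) summed to 21.7 to 22.5 and 25.6 to 30.9 CPM, with 3 called without control replicate 1. Myeloid and dendritic cell markers (10 genes, 2 tested, with Cd68 called lower) summed to 17.7 to 21.1 and 12.2 to 16.0 CPM. NK cell markers (6 genes, 3 tested, 2 called higher) summed to 19.6 to 24.6 and 28.9 to 35.6 CPM. Of them 1 was called when any single library but control replicate 2 or idelalisib replicate 3 was left out. The 3 tested were Eomes, Klrk1 and Gzma, which T cells can also express, and the NK marker Klrb1c had 10 counts in all. Erythroid markers summed to 1.43 to 1.78 and 1.67 to 2.57 CPM, and of 6 genes 2 were tested and 0 called by edgeR or DESeq2, with 0 at an unadjusted p under 0.05. Siglech and Ncr1 were at 0 counts in every library. The part of such cells in the results below was not tested, and in these bulk samples fewer cells of a type and less RNA per cell cannot be told apart.

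The promoter of Tet2, the gene with the largest change of the 10, is shown first because it is among the promoters richest in CpG, the dinucleotide that these enzymes modify. RefSeq's promoter table (build GRCm38.p6, the same assembly as mm10) holds 14 windows for the 10 genes, each from 250 bases before to 50 bases after a transcription start. The Tet2 window held 57 CpG, at or above 99.9% of all 32851 windows, whose median was 7. Its 250 bases upstream of the start, chr3:133544391-133544640 on the minus strand, contain no annotated exon. They lie inside the annotated gene, which ends at 133545139, so the RefSeq start used here is not the outermost start of the gene model. They are printed with each CpG in capitals.
Tet2: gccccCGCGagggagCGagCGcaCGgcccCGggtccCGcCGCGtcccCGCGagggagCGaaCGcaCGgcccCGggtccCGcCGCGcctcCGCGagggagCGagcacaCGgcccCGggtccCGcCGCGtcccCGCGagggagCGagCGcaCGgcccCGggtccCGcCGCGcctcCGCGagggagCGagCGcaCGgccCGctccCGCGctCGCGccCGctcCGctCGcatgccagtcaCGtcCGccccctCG

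The windows were also searched, on both strands, for words bound by E2F and FOXO, factors of the cell cycle and of PI3K signalling. The E-box and the interferon-stimulated response element were searched as well. For E2F, the factors that drive S phase genes, the words were TTTGGCGC, TTTCCCGC, TTTGCCGC and TTTCGCGC, which overlap one another in their letters. Of all windows 2.26% held at least 1 of them. Among the 14 windows of the 10 genes, 3 did: 1 of the 3 windows of Dnmt1, and those of Ezh2 and Suz12. Each word contains a CpG, and these windows held 33, 31 and 41 CpG, against a median of 7 over all windows. The 2.26% was not matched for CpG content, whose part in the matches was not tested. Uhrf1, Cdca7 and the demethylase gene Kdm6a were searched as well, picked by name and all called in these data (below). The other maintenance partners and the S phase genes were not searched as lists. Uhrf1 and Cdca7, which act with DNMT1 in maintenance, held 1 match each, Uhrf1 in 1 of its 2 windows. Stretches of 30 bases around these matches are shown 5′ to 3′ on the gene's strand with the match in capitals, because Dnmt1, Uhrf1 and Cdca7 were called higher with idelalisib while Ezh2 and Suz12 were not called (below).
Dnmt1, chr9:20952574-20952603, minus strand, from 33 bases after the start: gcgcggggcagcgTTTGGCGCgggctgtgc
Ezh2, chr6:47595009-47595038, minus strand, from 3 bases after the start: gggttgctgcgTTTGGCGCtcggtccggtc
Suz12, chr11:79992876-79992905, plus strand: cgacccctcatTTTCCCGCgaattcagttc
Uhrf1, chr17:56304117-56304146, plus strand: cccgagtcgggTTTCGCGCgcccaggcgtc
Cdca7, chr2:72476137-72476166, plus strand: tgcgtcccggcGCGGGAAAgccggtggccc
Dnmt1 held a second match further upstream in the same window. The FOXO word GTAAACA (3.65% of all windows) was found in the window of Eed, whose 250 upstream bases all lie in annotated exons, beginning 150 bases before the start: tgagaagttccGTAAACActaactcgaagt (chr7:89981108-89981137, minus strand). The E-box CACGTG (7.15% of all windows) was found in 1 of the 3 windows of Dnmt3a and in that of Kdm6a, and the interferon-stimulated response element (GAAA, any 2 bases, GAAA; 3.44%) in none of the 10 genes. A match describes letters only and does not show that a factor binds there.

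Of the 10 genes, 1 rose (Dnmt1) and 3 fell (Tet2, Tet3 and Eed) with idelalisib at an adjusted p under 0.05. The other 6 did not pass the test (edgeR quasi-likelihood test, p-values adjusted over all tested genes). Over all 14530 tested genes 44.6% were called, 22.2% higher and 22.4% lower, so 4 called genes of 10 is close to the share among all genes. The median log2 fold change was -0.20 over the 10 genes and 0.01 over all tested genes. With library size alone, which called 68.5% of the changed genes higher against 49.8% here, 3 of the 10 were higher (Dnmt1, Dnmt3a and Dnmt3b) and 1 lower (Tet2). In 4 of the 10 genes the libraries of the groups did not overlap in CPM, against 54.6% of all tested genes.

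**Figure D1:**
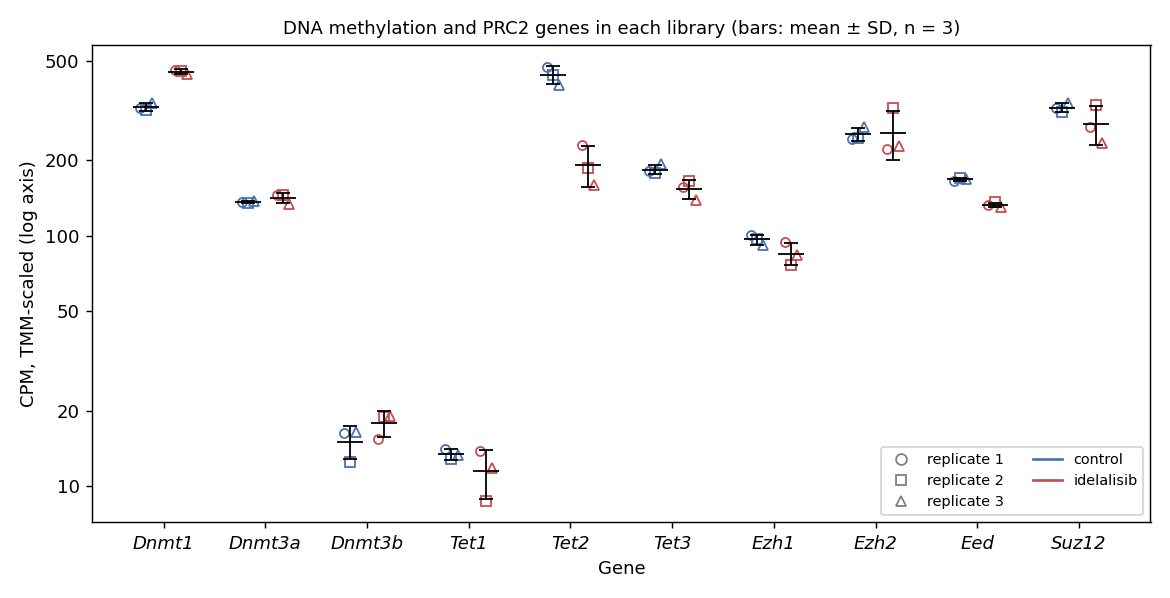
Level of each gene in each library, in CPM on TMM-scaled library sizes (log axis), with the genes along the horizontal axis and symbols for replicates. Horizontal bars with whiskers are the mean ± SD of 3 libraries. Dnmt1 lies higher and Tet2, Tet3 and Eed lower in all 3 idelalisib libraries than in any control library, and Ezh2 and Suz12 have their highest idelalisib value in replicate 2.

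Dnmt1, the maintenance methyltransferase (ENSMUSG00000004099, mm10 chromosome 9, 20907209 to 20959888), rose with idelalisib. It was at 324, 318 and 340.0 CPM in control replicates 1 to 3 and at 458, 457 and 442 CPM in idelalisib replicates 1 to 3. The groups did not overlap, and the 3 libraries of each group lay close together. Its mean went from 327 ± 11.4 to 452 ± 9.001 CPM (SD, n = 3), and the log2 fold change was 0.47 (SE 0.07, 95% interval 0.31 to 0.62, edgeR adjusted p = 0.000181). The call held in all 16 alternatives, between 0.44 and 0.62. Of its transcripts' 50-base words, 0.761% occur in annotated transcripts of other genes. Such a share compares sequences only and does not show where the counted reads came from.

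The de novo methyltransferases did not pass the test. Dnmt3a (ENSMUSG00000020661, chromosome 12, 3806007 to 3914443) was at 137, 135 and 138 CPM in control and 146, 146 and 134 CPM with idelalisib. The groups overlapped through idelalisib replicate 3. Its log2 fold change was 0.06 with a 95% interval of -0.11 to 0.22 (edgeR adjusted p = 0.587). Dnmt3b (ENSMUSG00000027478, chromosome 2, 153649450 to 153687730) was scarcer, at 16.3, 12.5 and 16.4 CPM in control and 15.5, 18.98 and 19.2 CPM with idelalisib. Its interval was wider, -0.07 to 0.56 around 0.24 (edgeR adjusted p = 0.185), and 9.81% of its 50-base words occur in other genes. Scaled by library size alone, which raised the median of all genes to 0.16, both were called higher (log2 fold changes 0.21 and 0.40, adjusted p = 0.0373 and 0.0343). Dnmt3l, the catalytically inactive partner of the de novo enzymes, had 6 counts over the 6 libraries and was not tested.

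Within each library Dnmt1 outweighed the de novo enzymes. The ratio of Dnmt3a to Dnmt1 in counts per kilobase of gene length does not depend on the scaling between libraries. It was 0.187, 0.189 and 0.179 in control and 0.141, 0.141 and 0.135 in idelalisib libraries, with no overlap. Dnmt1 held 79.9 ± 0.489% of the summed length-scaled level of the 3 genes in control and 83.6 ± 0.410% in idelalisib libraries, and Dnmt3a 14.8 ± 0.398% and 11.6 ± 0.328%. The ratio of Dnmt3b to Dnmt3a overlapped between groups, at 0.360 ± 0.0508 and 0.412 ± 0.0607. The deposited lengths of Dnmt3a, Tet1, Tet2 and Tet3 are the longest of the 10 and count the exons of all annotated isoforms, so their length-scaled levels may lie below those of a single transcript. These ratios are descriptions, since 3 libraries against 3 cannot give an exact permutation p below 0.1.

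Tet2 fell the most of the 10 genes. Tet2 encodes a dioxygenase that lacks the CXXC domain of its relatives and is often mutated in blood cancers (ENSMUSG00000040943, chromosome 3, 133463679 to 133545139). It was at 474, 440.2 and 401 CPM in control and 230.3, 187 and 159 CPM with idelalisib, so the groups lay far apart although each was spread. The mean went from 438 ± 36.3 to 192 ± 35.8 CPM, 2.28-fold lower, with a log2 fold change of -1.19 (SE 0.12, 95% interval -1.45 to -0.93, edgeR adjusted p = 6.23e-06). Its absolute change was larger than that of 90.9% of tested genes. The call held in all 16 alternatives, with log2 fold changes from -1.33 to -1.03, and 0.0118% of its 50-base words occur in other genes.

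Tet3 (ENSMUSG00000034832, chromosome 6, 83362373 to 83459084), which carries the CXXC domain in its long form, fell by less. Its values were 181, 177 and 193 CPM in control and 156, 166 and 139 CPM with idelalisib, close but not overlapping. The log2 fold change was -0.26 (SE 0.08, 95% interval -0.44 to -0.07, edgeR adjusted p = 0.0249). The call did not hold when replicate 1 or 3 of either group was left out, with upper-quartile scaling and with library size alone (adjusted p up to 0.358). Tet1 (ENSMUSG00000047146, chromosome 10, 62804570 to 62908996), best known from embryonic stem cells, was rare at 14.1, 12.8 and 13.4 CPM in control and 13.8, 8.78 and 11.8 CPM with idelalisib. Its groups overlapped through idelalisib replicate 1, and its log2 fold change of -0.22 (95% interval -0.58 to 0.13) was not called (edgeR adjusted p = 0.286).

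Tet2 made up a smaller share of the TET genes with idelalisib. Per kilobase, the 3 genes together summed to 37.8 ± 1.84 CPM in control and 21.4 ± 2.70 CPM with idelalisib. Tet2 held 68.6 ± 2.52% of that sum in control and 53.1 ± 3.46% in idelalisib libraries, Tet3 29.1 ± 2.45% and 43.4 ± 3.71%, and Tet1 2.30 ± 0.0916% and 3.50 ± 0.776%. The ratio of Tet3 to Tet2 was 0.386, 0.407 and 0.485 in control and 0.686, 0.899 and 0.883 in idelalisib libraries. That of Tet1 to Tet2 was 0.0324, 0.0318 and 0.0364 against 0.0655, 0.0513 and 0.0810. Neither ratio overlapped between groups.

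**Figure D2:**
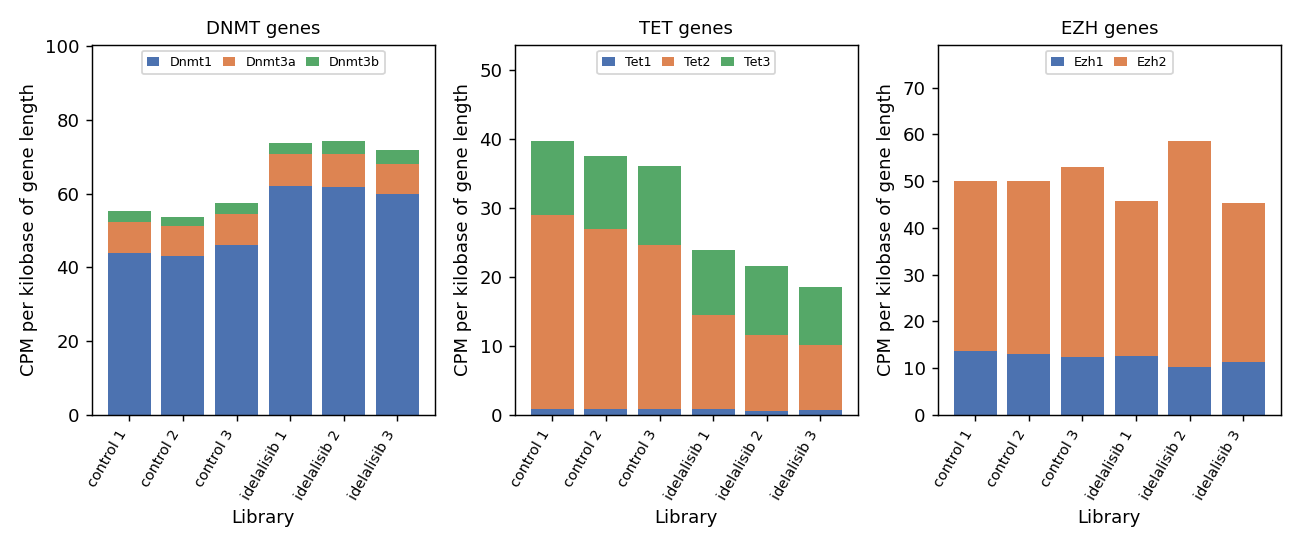
Length-scaled level (CPM per kilobase of gene length, vertical axis) of the DNMT, TET and EZH genes in each of the 6 libraries, stacked by gene. The DNMT sum is 55.5 CPM per kilobase on average in control and 73.3 in idelalisib libraries, mostly Dnmt1. The TET sum falls from 37.8 to 21.4 mostly through Tet2, and the EZH sum overlaps between groups.

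Among the PRC2 core genes, Eed fell. EED binds methylated lysine 27 and stimulates the complex (ENSMUSG00000030619, chromosome 7, 89954654 to 89980983). It was at 166, 171 and 168 CPM in control and 133, 136 and 130.4 CPM with idelalisib. Both groups were tight and lay apart. The log2 fold change was -0.34 (SE 0.07, 95% interval -0.50 to -0.18, edgeR adjusted p = 0.00202). It was -0.19 with library size alone, where the call was lost (adjusted p = 0.0522). An antisense transcript, E230029C05Rik, shares 6.82% of the exon bases of Eed and had 280 counts against 13707 for Eed. Of the 50-base words of Eed, 5.82% occur in other genes.

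The catalytic subunits did not pass the test. Ezh2 (ENSMUSG00000029687, chromosome 6, 47530139 to 47595341), the form typical of dividing cells, was at 243, 246 and 271 CPM in control and 221, 323 and 227 CPM with idelalisib. Replicate 2 was above every control library, while replicates 1 and 3 were below all of them. The log2 fold change of 0.02 had an interval of -0.26 to 0.30 (edgeR adjusted p = 0.915), and without idelalisib replicate 2 it was -0.17 (adjusted p = 0.0630). Ezh1 (ENSMUSG00000006920, chromosome 11, 101191115 to 101226463), the form of resting cells, was at 101, 97.0 and 92.1 CPM in control and 94.1, 76.5 and 84.1 CPM with idelalisib. Its log2 fold change was -0.19 (95% interval -0.38 to 0.01, edgeR adjusted p = 0.109). The ratio of Ezh1 to Ezh2 per kilobase was 0.372, 0.353 and 0.304 in control and 0.382, 0.213 and 0.332 in idelalisib libraries, lowest in idelalisib replicate 2.

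Suz12, the scaffold subunit (ENSMUSG00000017548, chromosome 11, 79993106 to 80034123), was, like Ezh2, highest in replicate 2 of the idelalisib group. It was at 325, 312 and 338 CPM in control and 271, 334 and 236 CPM with idelalisib, and replicate 2 lay within the control range. The log2 fold change of -0.21 (95% interval -0.44 to 0.02) was not called (edgeR adjusted p = 0.123). Without idelalisib replicate 2 it was -0.35 and called (adjusted p = 0.000602). The ratio of Eed to Suz12 overlapped between groups, at 0.670 ± 0.0324 and 0.624 ± 0.0951. Idelalisib replicate 2 also had the highest share of mitochondrial counts (2.26%, against 1.84% to 2.04% in the others) and the most Mki67, the Ki-67 proliferation marker, at 1126 CPM against 1012 and 783 CPM in the other idelalisib libraries. The part of either in the values of Ezh2 and Suz12 was not tested.

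**Figure D3:**
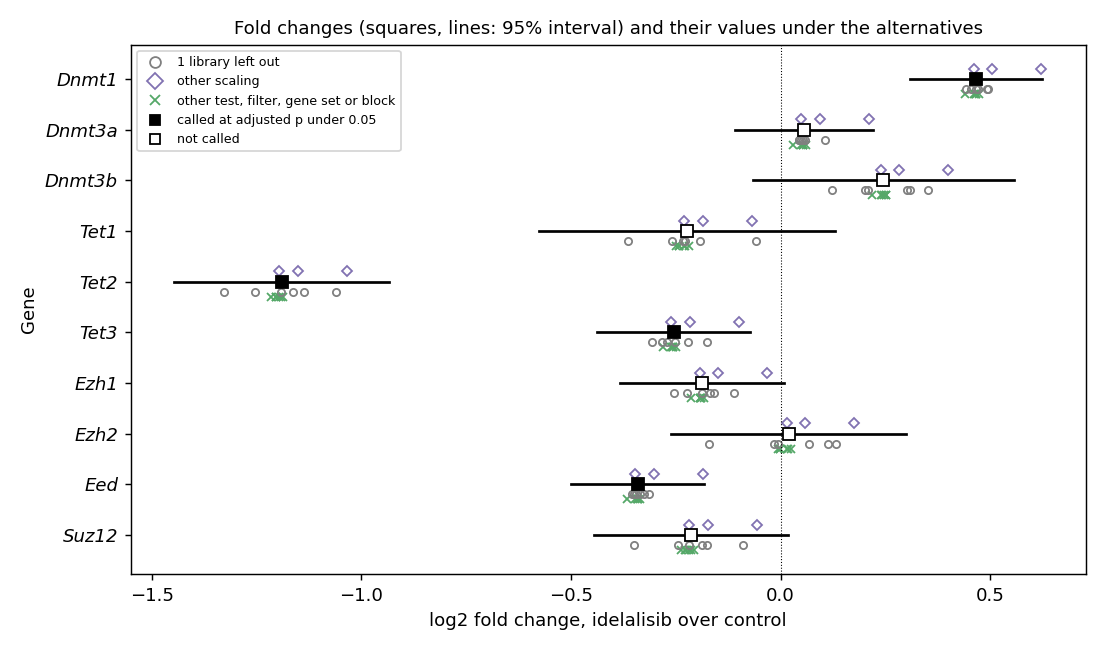
Log2 fold change of idelalisib over control (horizontal axis) for each gene, with squares for the reported value, lines for the 95% interval and smaller symbols for the alternatives. Dnmt1 and Tet2 keep their side of 0 and their call throughout, and the values of Ezh2 fall on both sides of 0, from -0.17 to 0.17.

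Ordered by length-scaled level in control libraries, Suz12 came first at 65.7 ± 2.55 CPM per kilobase, then Dnmt1 at 44.4 ± 1.55, Eed at 44.0 ± 0.614 and Ezh2 at 38.0 ± 2.31. Dnmt1 and Eed did not differ beyond their spread. Tet2 followed at 26.0 ± 2.15, Ezh1 at 12.997 ± 0.601, Tet3 at 11.0003 ± 0.477, Dnmt3a at 8.21 ± 0.0754, Dnmt3b at 2.95 ± 0.441 and Tet1 at 0.868 ± 0.0410. With idelalisib Dnmt1 had the highest mean at 61.3 ± 1.22, within the spread of Suz12 at 56.7 ± 10.1. Ezh2 at 38.5 ± 8.56 and Eed at 34.7 ± 0.713 were not apart either. Tet2 at 11.4 ± 2.12 lay at the level of Ezh1 at 11.4 ± 1.18, and Tet3 at 9.22 ± 0.820 and Dnmt3a at 8.53 ± 0.398 overlapped.

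Partners of DNMT1 in maintenance were split, with 4 of 9 tested genes higher and 2 lower (list median log2 fold change 0.12). Over all tested genes 22.2% were higher and 22.4% lower, so the lower count of this list is at the background. In the lists below, the percent called in either direction stands beside 44.6% over all tested genes. Uhrf1, the reader of half-methylated DNA, rose from 180 ± 11.4 to 277 ± 14.2 CPM (edgeR log2 fold change 0.63 with SE 0.08, adjusted p = 3.41e-05). Its values were 188, 185 and 167 CPM in control and 277, 263 and 292 CPM with idelalisib. Its paralog Uhrf2, which does not replace it in maintenance, fell from 178 ± 14.6 to 123 ± 12.7 CPM (edgeR log2 fold change -0.53 with SE 0.09, adjusted p = 0.000416). Cdca7, which activates the remodeller HELLS, rose 2.10-fold from 29.4 ± 1.71 to 61.7 ± 4.77 CPM, and the DNA ligase Lig1 and the replication clamp Pcna rose by 0.64 and 0.42 on the log2 scale. Hells itself was at 97.0 ± 3.53 and 105 ± 13.7 CPM (log2 fold change 0.12, edgeR adjusted p = 0.336).

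The rise of Dnmt1, Uhrf1, Cdca7, Lig1 and Pcna stood beside a rise of S phase genes. All 22 genes of an S phase list were called higher, against 22.2% of all tested genes, and their median log2 fold change was 0.77. The call of Gins2 (0.33) was lost without any single library but idelalisib replicate 2 (edgeR adjusted p up to 0.0971). The opposite-strand gene Gse1 shares 67.3% of the exon bases of Gins2. Their summed level was 2863 to 2943 CPM in control and 4355 to 4907 CPM with idelalisib. Pcna belongs to both lists. Examples were Rrm2 at 1.63, Cdc6 at 1.24 and Mcm7 at 1.17, and Mki67 was at 0.58. Of the 5 genes whose E2F words are shown above, Cdca7 had a log2 fold change of 1.07, Uhrf1 of 0.63, Dnmt1 of 0.47, Ezh2 of 0.02 and Suz12 of -0.21. Because the other genes of both lists were not searched, these 5 do not show how the words relate to the changes. The part of S phase cells in the level of Dnmt1 was not tested.

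Readers of methylated DNA went both ways, with 3 of 8 higher and 2 lower (62.5% called, list median log2 fold change 0.05). The largest change was in Zbtb38, a zinc finger reader, which fell from 156 ± 16.8 to 73.2 ± 11.1 CPM (edgeR log2 fold change -1.10 with SE 0.11, adjusted p = 5.38e-06). Zbtb33, which encodes Kaiso, fell by 0.53, while their relative Zbtb4 and the glycosylase gene Mbd4 rose by 0.63 and 0.47. The call of Mbd4 was lost without control replicate 2 (edgeR adjusted p = 0.0740). Mbd2 rose by 0.28 and was no longer called without control replicate 3 (edgeR adjusted p = 0.0700).

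Of 9 tested genes linked to the removal of oxidised methylcytosine, 3 were higher and 0 lower by edgeR and by DESeq2. The list was 33.3% called, with a median log2 fold change of 0.14 and 0 lower at an unadjusted p under 0.05. Not all of its genes excise that base themselves. Tdg, the glycosylase that excises the products of TET oxidation, was at 71.0 ± 2.14 and 66.2 ± 8.71 CPM (edgeR adjusted p = 0.424). Smug1 and Neil2, other base excision enzymes, had log2 fold changes of 0.55 and 0.57, with Mbd4 as the other called gene. The call of Smug1 was lost without control replicate 1 or 2 and that of Neil2 without any control library or idelalisib replicate 1 (edgeR adjusted p up to 0.0618 and 0.267), so without control replicate 2 none of the list was called. Among the H3K36 methyltransferases, whose mark recruits DNMT3 enzymes, 1 of 4 tested genes was higher and 0 lower by edgeR or DESeq2, with 1 lower at an unadjusted p under 0.05 (25% called, median log2 fold change -0.11). This was Nsd2, from 208 ± 11.5 to 309 ± 24.4 CPM (edgeR log2 fold change 0.57 with SE 0.08, adjusted p = 0.000103). Without idelalisib replicate 2, 2 genes of that list were called lower.

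Genes of methyl donor and cofactor supply included 6 of 12 called higher and 2 called lower (66.7% called, median log2 fold change 0.26). The lower count was 1 when replicate 1 or 3 of either group was left out. Mat2a, which makes S-adenosylmethionine, the methyl donor of both enzyme classes, rose from 58.0 ± 3.72 to 84.3 ± 9.97 CPM (edgeR log2 fold change 0.54 with SE 0.10, adjusted p = 0.000564). Mtrr, which reactivates methionine synthase, rose by 0.78. Idh1, which yields 2-oxoglutarate, the cosubstrate of TET enzymes, rose by 0.68 from 10.3 ± 0.889 to 16.5 ± 1.48 CPM. D2hgdh, which removes the TET inhibitor D-2-hydroxyglutarate, had a log2 fold change of 0.45, and its call was lost without control replicate 3 or idelalisib replicate 1 or 3 (edgeR adjusted p up to 0.113).

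The partner subunits of PRC2 changed in both directions, 3 higher and 3 lower of 9 (66.7% called, median log2 fold change -0.02). The histone chaperones Rbbp7 and Rbbp4, which PRC2 shares with chromatin assembly and deacetylase complexes, rose. Rbbp7 was at 151, 156 and 152 CPM in control and 248, 247 and 227 CPM with idelalisib (edgeR log2 fold change 0.65 with SE 0.08, adjusted p = 1.38e-05), and Rbbp4 had a log2 fold change of 0.31. Phf19, a Polycomb-like subunit that marks one form of the complex, rose from 20.3 ± 2.93 to 29.2 ± 0.357 CPM. Jarid2, a defining subunit of the other form, fell from 445 ± 5.85 to 319 ± 16.7 CPM (edgeR log2 fold change -0.48 with SE 0.08, adjusted p = 0.000164). Mtf2 was at 103 ± 7.95 and 94.6 ± 8.55 CPM (edgeR adjusted p = 0.297). Lcor was called lower at -0.49, a call lost with library size alone and without any single library but idelalisib replicate 2 (edgeR adjusted p up to 0.119). The list's lower count was 1 without any single control library or idelalisib replicate 1, and 1 with library size alone.

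Of the H3K27 demethylases, which oppose PRC2, all 3 fell (median log2 fold change -0.33), against 22.4% of all tested genes called lower. Kdm6a, on the X chromosome, was at 93.0, 87.9 and 87.3 CPM in control and 61.6, 63.2 and 54.2 CPM with idelalisib (edgeR log2 fold change -0.58 with SE 0.09, adjusted p = 0.000116). Kdm6b, the inducible member, was at 124, 112 and 111 CPM against 93.9, 91.0 and 93.9 CPM (edgeR log2 fold change -0.32 with SE 0.08, adjusted p = 0.00545). Uty, the Y-linked relative with weak activity, was at -0.33 (edgeR adjusted p = 0.0103) and was no longer called without control replicate 2 or idelalisib replicate 1. With library size alone only Kdm6a of the 3 was called (edgeR adjusted p = 0.113 for Kdm6b and 0.138 for Uty).

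**Figure D4:**
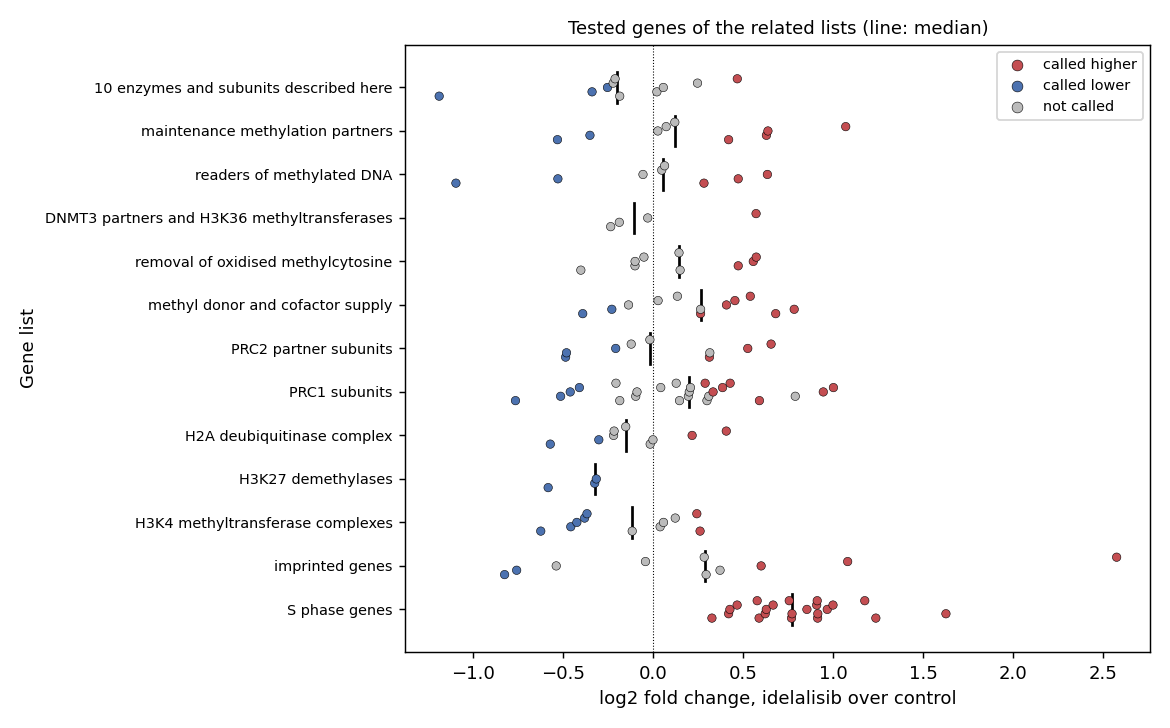
Log2 fold change of idelalisib over control (horizontal axis) of each tested gene in the related lists (rows), coloured by call, with a line at the list's median. All 22 S phase genes lie above 0 and all 3 H3K27 demethylases below it, and most other lists lie on both sides.

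The subunits of Polycomb repressive complex 1, which ubiquitinates histone H2A, were also split, with 7 higher and 4 lower of 24 tested (45.8% called, median log2 fold change 0.20). With library size alone 13 were higher. Rybp and Cbx2, subunits of 2 alternative forms, rose by 1.00 and 0.94, Cbx2 from 11.05 ± 1.21 to 21.3 ± 0.848 CPM (edgeR adjusted p = 5.83e-05). Rybp was more spread, from 13.7 ± 1.94 to 27.3 ± 8.53 CPM, with 37.2 CPM in idelalisib replicate 2. Its call held in all 16 alternatives, with a log2 fold change of 0.73 at the lowest. Pcgf6 rose by 0.59, and Pcgf5 fell from 390.1 ± 32.2 to 229 ± 22.1 CPM (edgeR log2 fold change -0.77 with SE 0.09, adjusted p = 1.68e-05). Cbx7 rose by 0.33, a call lost without control replicate 2 (edgeR adjusted p = 0.0633). The ligase genes Ring1 and Rnf2 and the subunit Bmi1 had log2 fold changes of -0.19, -0.10 and 0.04 and was not called (edgeR adjusted p = 0.294, 0.447 and 0.750).

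In the complex that removes this ubiquitin 2 genes were higher and 2 lower of 9 (44.4% called, median log2 fold change -0.15). The catalytic subunit Bap1 was at 87.5 ± 4.51 and 86.4 ± 6.57 CPM (edgeR adjusted p = 0.881). Mbd6 fell by 0.57 and Hcfc1 rose by 0.40, while Foxk2 and Asxl1, at -0.30 and 0.22, lost their calls without idelalisib replicate 1 (edgeR adjusted p = 0.0537) and without any single control library (edgeR adjusted p up to 0.125), respectively. Of the complexes that methylate lysine 4 of histone H3, 5 of 11 genes were lower and 2 higher (63.6% called, median log2 fold change -0.12). With library size alone the counts were 3 and 4, and the 2 higher calls were lost with DESeq2 and without control replicate 1 or 3 or idelalisib replicate 1. Kmt2d, a large enhancer methyltransferase, fell from 655 ± 31.7 to 425 ± 37.5 CPM (edgeR log2 fold change -0.63 with SE 0.08, adjusted p = 5.05e-05). Setd1a, Kmt2a and Rbbp5 were called lower at -0.46, -0.43 and -0.38, Kmt2a not with library size alone (edgeR adjusted p = 0.0658).

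Genes known to be silenced by these marks were mostly not detected well enough to test. Of 41 Hox and Cdkn2 genes, which Polycomb keeps silent in many tissues, 2 passed the count filter, 18 had no count in any library and 0 were called by edgeR or DESeq2, or were at an unadjusted p under 0.05. Cdkn2a was at 0.893 ± 0.242 and 1.05 ± 0.380 CPM (edgeR adjusted p = 0.682). Of 16 germline genes silenced by promoter methylation, 2 were tested and 1 was called. Tuba3a went from 3.78 ± 0.473 to 6.71 ± 2.29 CPM with overlapping groups, and was no longer called without control replicate 1 or 3 or idelalisib replicate 1 (edgeR adjusted p up to 0.0757). The opposite-strand gene 4930417O13Rik, with 4494 counts against 474 for Tuba3a, shares 4.97% of the exon bases of Tuba3a. Whether the counting used strand was not stated.

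Imprinted genes, whose single active allele is set by DNA methylation, were tested for 10 of 20, with 3 higher and 2 lower (50% called, list median log2 fold change 0.29). H19, a noncoding RNA, had 12, 14 and 9 counts in control and 59, 82 and 72 counts in idelalisib libraries, which is 0.773 ± 0.142 and 4.66 ± 1.01 CPM (edgeR log2 fold change 2.57 with SE 0.30, adjusted p = 1.39e-05). Igf2r, a receptor that clears IGF2, fell from 266 ± 8.42 to 157 ± 10.8 CPM (edgeR log2 fold change -0.76 with SE 0.08, adjusted p = 5.71e-06). Without control replicate 2 or idelalisib replicate 3 the lower count was 1. Airn, the antisense RNA of that locus, was at -0.83 and was no longer called without control replicate 2 or idelalisib replicate 3 (edgeR adjusted p up to 0.0791). Whether the counting used strand was not stated in the sources used here, so unspliced reads of Igf2r could have been counted as Airn. Mest was at 1.08, with 23.1% of its exon bases shared with the opposite-strand gene Copg2. Gene counts do not show which allele a read came from.

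For each of the 3 genes with the largest change, the genes closest in their profile over the 6 libraries were found among 11388 other protein-coding genes. Likeness was the root mean square difference of log2 CPM centred on the mean, so it reflects mostly the group difference. The genes nearest to Tet2 were Sh3yl1, Plekha6, Gm3667 and R3hdm1, at differences of 0.0808, 0.0813, 0.0910 and 0.114. Of these R3hdm1 was abundant, at 652 CPM in control and 293 CPM with idelalisib. Among the genes nearest to Dnmt1 were Csgalnact2, Slc35e2 and Paxip1, at 0.0250, 0.0305 and 0.0341. Those nearest to Eed were Klhdc2, Srrm1, Rnf149 and 4933434E20Rik, at 0.0225 to 0.0255.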

How the data were processed

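The authors deposited raw read counts per gene, 1 column per library. Tools named in the submitters' processing notes are fastp, the aligner HISAT2 (2.0.5) and the counter featureCounts (1.5.0-p3), with mm10 as the build. Strand setting, annotation release and the treatment of multiply mapped reads: not given in the sources used here. Gene lengths are those deposited by the authors, another value per gene beside the counts.

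Libraries were grouped by their titles. Genes passing filterByExpr (minimum count 10, minimum total 15) were tested after TMM scaling by edgeR (4.0.16, R 4.3.3; quasi-likelihood test, robust, group alone), with Benjamini-Hochberg adjustment over 14530 genes and calls at 0.05. The SE is the log2 fold change over the root of F. The chi-square of counts per degree of freedom was 4.99 to 6.01 between control libraries and 9.91 to 20.3 between idelalisib libraries, so no library was a duplicate. It was highest in the pairs with idelalisib replicate 2 (12.6 and 20.3). Without that library 3599 genes were called higher and 3581 lower, against 3223 and 3256 with it. Alternatives were other scalings, DESeq2 1.42.0, limma-voom (limma 3.58.1), other filters, a threshold of 0.01, protein-coding genes alone, a replicate block and leaving out each library. The scripts were tested on simulated data.

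The 10 genes and the related lists were chosen with earlier results of these data known. A few genes outside the rule below are named to state a limit. Named were the 10 genes, others fixed whatever their result, in each list the 4 called genes with the largest change averaging at least 1 CPM, and the 4 genes most like each of 3 members; of those in marker and S phase lists some are given in counts only, and a few named genes are not reported here.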

Additional observations from a re-analysis of the deposited data

How the results depend on the processing

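Over 16 alternatives per gene, 143 of 160 results for the 10 genes kept their direction and side of the threshold. The number of the 10 genes called was 3 to 5 when 1 library was left out, and 3 to 4 in the other alternatives. In all tested genes, 2138 were higher at an adjusted p under 0.01 against 3223 at 0.05. Scaling by library size alone gave 4832 higher and 2219 lower genes (68.5% higher, against 49.8%). Ezh2, near 0, changed sign with limma-voom (-0.00217), protein-coding genes alone (-0.00508) and the replicate block (-0.00114), and ranged from -0.17 to 0.13 when 1 library was left out. Other genes that were not called changed sign with library size alone, Tdg at 0.0522, Mtf2 at 0.0325, Rnf2 at 0.0574 and Bap1 at 0.137 (0.0201 with upper-quartile scaling). When 1 library was left out, Tdg ranged from -0.180 to 0.0107, Bmi1 from -0.00748 to 0.135, Bap1 from -0.0686 to 0.0406 and Cdkn2a from -0.0207 to 0.488. The cause was not tested. In raw counts without gene length, ratios in control and idelalisib libraries were 0.417 and 0.314 for Dnmt3a to Dnmt1, 0.110 and 0.126 for Dnmt3b to Dnmt3a and 0.519 and 0.483 for Eed to Suz12, and in control 0.383 for Ezh1 to Ezh2 and 0.0307 for Tet1 to Tet2. With the replicate number as a block, 2910 genes were higher and 3051 lower, 5898 genes kept their call, and 4 of the 10 genes were called. Under the block Asxl1 and Cd8a lost their calls (adjusted p = 0.0577 and 0.0573), and 1 gene was called lower for methyl donor supply and 1 higher for H3K4 methylation, against 2 and 2. Same-numbered libraries did not deviate together (r of 0.08, -0.13 and -0.10). With 3 libraries per group these correlations cannot decide whether the numbers pair the cultures, and the labels do not say. Precision for Tet1 and Dnmt3b is limited by their 1138 and 1504 counts in all.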
